A study of Mus musculus with 6 samples.

Results

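The members are 10 genes of the rapid transcriptional response: the Fos family (Fos, Fosb, Fosl1 and Fosl2), the Jun family (Jun, Junb and Jund), and Egr1, Ier2 and Nr4a1. They were chosen by name. Of the 10, 8 were found by symbol in the deposited normalized table of 20161 genes, and Fosb and Fosl1 were found by gene ID in the count table of 48709 genes only. RNA came from first molar tooth germs of C57BL/6 mice at postnatal day 7, with 3 libraries from Gpr115-/- mice (Gpr115-KO) and 3 from wild-type littermates (WT). Gpr115, listed under its current symbol Adgrf4, is an adhesion G protein-coupled receptor, and the study asked what the tooth germ expresses differently without it. The labels give no design of the deleted allele, and they do not say whether a library is 1 animal or several, so a p-value here sets a difference against the spread of these libraries, which may be technical.

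Immediate early genes are transcribed within minutes of a signal, without new protein synthesis, and their transcripts are short-lived. Fos proteins pair with Jun proteins through a leucine zipper to form AP-1, a transcription factor that binds a palindromic site in DNA, whereas Jun proteins can also pair with themselves. The signals reach these genes largely through mitogen-activated protein (MAP) kinases acting on factors already bound to their promoters, and in mineralizing tissue AP-1 members are known for roles in osteoblast and osteoclast formation. Because handling of tissue can also induce these genes, a level in dissected tissue is a level at the time of RNA extraction. In bulk tissue, fewer cells of a type and less RNA per cell cannot be told apart.

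Library totals ran from 8317302 to 10328654 counts in Gpr115-KO and from 8833612 to 11122821 in WT, so that 1 count was worth 0.0907 to 0.114 CPM (counts scaled by library size and by edgeR's TMM factors). Adgrf4 was at 39.2, 20.6 and 27.5 CPM in Gpr115-KO replicates 1 to 3, against 67.1, 62.5 and 67.5 CPM in WT, and each Gpr115-KO library was below every WT library (adjusted p = 0.0887 in edgeR). The 7 ameloblast markers were all detected, with a summed level of 96400 to 204000 CPM in Gpr115-KO and 113000 to 146000 CPM in WT. Erythroid markers summed to 305, 396 and 159 CPM in Gpr115-KO replicates 1 to 3, against 139 to 158 CPM in WT, and 6 of 6 tested markers had a log2 fold change above 0. Skeletal muscle markers summed to 25.3, 238 and 65.9 CPM in Gpr115-KO and 38.8 to 55.9 CPM in WT, and again 6 of 6 had a log2 fold change above 0. Leukocyte markers summed to 86.9 to 105 CPM in Gpr115-KO and 76.3 to 86.8 CPM in WT (5 of 7 tested markers with a log2 fold change above 0), and keratinizing oral epithelium markers to 37.4 to 279 CPM in Gpr115-KO and 37.5 to 142 CPM in WT (4 of 7). Endothelial markers summed to 41.3 to 64.0 CPM in Gpr115-KO and 52.7 to 64.0 CPM in WT (2 of 6), and odontoblast markers to 39100 to 68200 CPM in Gpr115-KO and 35000 to 77700 CPM in WT (3 of 6). The 9 mitochondrial transcripts summed to 2100, 3130 and 1950 CPM in Gpr115-KO and 1620 to 1980 CPM in WT, and 9 of 9 had a log2 fold change above 0. None of these markers was called, no marker was at 0 in every library, and the part of any of these in the results on the members was not tested.

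The 10 members had 0 to 390 counts in any library. Junb and Jund, which encode Jun proteins known for weaker activation of AP-1 sites than Jun, had about 2 times as much RNA in Gpr115-KO as in WT, and Ier2, which encodes a small nuclear protein induced by growth factors, had 1.25 times as much. The libraries of the genotypes did not overlap in these 3 genes. Fos, Jun, Fosl2, Egr1 and Nr4a1 had overlapping libraries. Of the 8 members tested, 0 passed an adjusted p under 0.05 in edgeR's quasi-likelihood test over 16011 genes, where 0.15% of all genes passed and 0.0375% passed higher in Gpr115-KO. At an unadjusted p under 0.05 there were 2 of 8 (Junb and Jund), both higher in Gpr115-KO, where 12.3% of all genes passed in either direction and 4.85% passed higher in Gpr115-KO. DESeq2 called 1 member, Junb, where it called 1.87% of 12754 genes, and limma-voom called 0. edgeR with no count filter called Junb and Jund, where 1.71% of 29163 genes were called. Of the 8, 3 had libraries that did not overlap and were higher in Gpr115-KO, where 8.55% of all tested genes had this pattern, and 0 had libraries that did not overlap and were lower. The fitted change was above 0 in 6 of 8, where 51.3% of all tested genes lay above 0, and the median log2 fold change was 0.23 for the 8 and 0.01 for all tested genes.

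**Figure D1:**
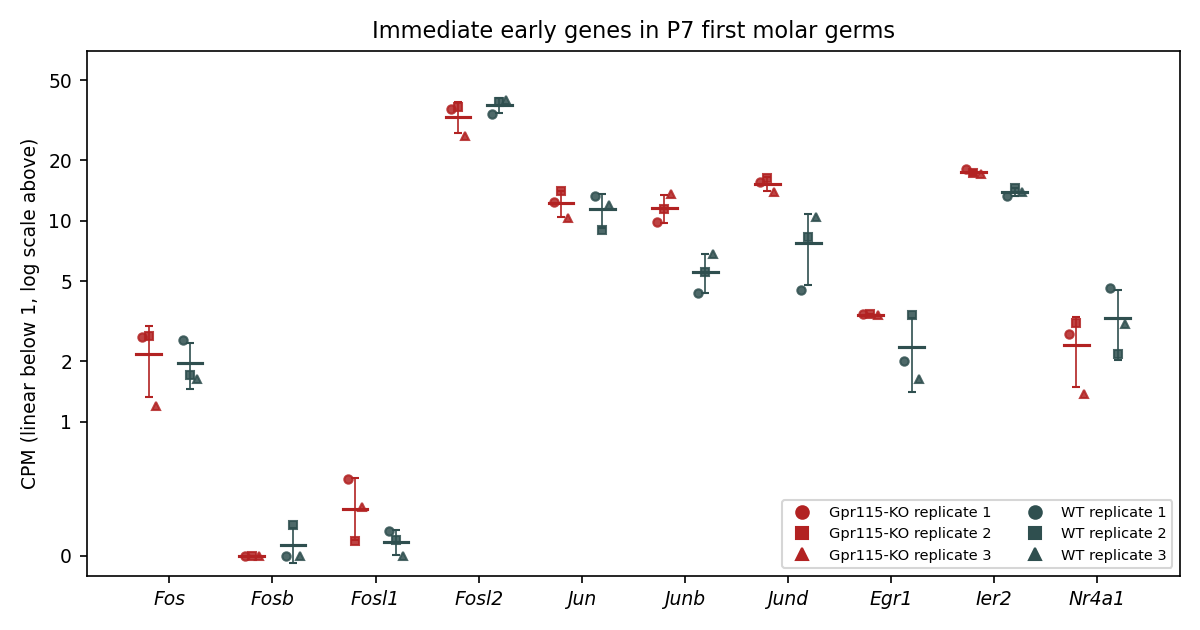
Level of each member in CPM (linear below 1, log scale above) in 3 Gpr115-KO libraries (red) and 3 WT libraries (dark slate); marker shapes are replicates, bars are means and whiskers SD. The red and dark points separate for Junb, Jund and Ier2 and overlap for the others.

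Levels of different genes were set side by side as CPM per kb of exon. Ier2 had the highest level in both genotypes, at 11.5 ± 0.324 CPM per kb in Gpr115-KO and 9.13 ± 0.403 in WT (SD, n = 3 each). Jund came next, at 9.17 ± 0.753 CPM per kb in Gpr115-KO and 4.66 ± 1.80 in WT. Of its 1668 nt of exon, 877 nt are shared with Gm11175, a gene on the opposite strand. How reads there were counted is not given, so the level of Jund per kb of its full exon, and its rank, are uncertain. In Gpr115-KO the order continued with Junb (5.04 ± 0.814), Jun (3.84 ± 0.577) and Fosl2 (3.40 ± 0.599). In WT it continued with Fosl2 (3.87 ± 0.332), Jun (3.57 ± 0.683) and Junb (2.42 ± 0.534). In Gpr115-KO the ranges of Ier2, Jund and Junb were separate from each other, while Junb overlapped Jun and Jun overlapped Fosl2. In WT the range of Ier2 was separate from that of Jund, and Jund, Fosl2, Jun and Junb each overlapped the next. Fos, Egr1 and Nr4a1 were at 1.32 CPM per kb or less in each of the 6 libraries and overlapped one another within each genotype. Within the Fos family, Fosl2 was above Fos in every library.

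The Jun family holds the members with the largest fitted changes, Junb and Jund. Junb (ENSMUSG00000052837, chromosome 8, 84974484 to 84978718 on GRCm38, minus strand) had 9.80, 11.4 and 13.5 CPM in Gpr115-KO replicates 1 to 3, against 4.35, 5.57 and 6.81 CPM in WT replicates 1 to 3. The lowest Gpr115-KO library was above the highest WT library. These values rest on 86, 107 and 148 counts in Gpr115-KO and 48, 49 and 67 counts in WT. The mean was 11.6 ± 1.87 CPM in Gpr115-KO and 5.58 ± 1.23 CPM in WT (SD, n = 3 each), a fitted fold of 2.08 with a 95% interval of 1.42 to 3.06. Intervals are those of single genes, with no adjustment for the number of genes tested. The log2 fold change was 1.06 (SE 0.25), with an adjusted p of 0.177 in edgeR, rank 139 of all genes by p. Over 19 other fits the adjusted p lay between 0.019 and 0.672. It passed in 2 of them, edgeR with no count filter (0.019) and DESeq2 (0.0412), and it was highest without WT replicate 1. Junb shares 173 nt of exon with Prdx2, a gene on the opposite strand that encodes a peroxidase abundant in red cells, and the libraries were not stranded. Prdx2 had 360, 451 and 392 CPM in Gpr115-KO, against 377, 327 and 393 CPM in WT, with overlapping libraries (log2 fold change 0.13, SE 0.17, adjusted p = 0.794 in edgeR). The summed erythroid markers, at 305, 396 and 159 CPM in the Gpr115-KO libraries and 139 to 158 CPM in WT, stand beside these values, and their part in the Junb counts was not tested.

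Jund (ENSMUSG00000071076, chromosome 8, 70698949 to 70700616, plus strand), a gene with a single exon whose protein is in most tissues a steadily made member of the family, had 15.6, 16.4 and 13.9 CPM in Gpr115-KO, against 4.53, 8.30 and 10.5 CPM in WT. The 3 Gpr115-KO libraries were close together, the WT libraries were spread by more than a factor of 2, and the groups did not overlap. The mean was 15.3 ± 1.26 CPM in Gpr115-KO and 7.77 ± 3.0 CPM in WT (SD, n = 3 each), a fitted fold of 1.97 with a 95% interval of 1.28 to 3.05. The log2 fold change was 0.98 (SE 0.29, adjusted p = 0.251 in edgeR). Over 19 other fits the adjusted p lay between 0.0165, in edgeR with no count filter and the single pass, and 0.729, without WT replicate 1. Of the 1668 nt of the exon, 877 nt are also exon of Gm11175, a gene annotated on the opposite strand. Gm11175 had 5.13, 6.95 and 5.85 CPM in Gpr115-KO, against 1.72, 2.5 and 4.47 CPM in WT, likewise without overlap (log2 fold change 1.05, SE 0.37, adjusted p = 0.299 in edgeR). A read from the shared 877 nt could belong to either gene, and how such reads were counted is not given. The values of this pair therefore cannot be taken as independent of each other.

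Jun (ENSMUSG00000052684, chromosome 4, 95049034 to 95052222, minus strand), the founding member and the strongest activator of the family, had 12.4, 14.0 and 10.3 CPM in Gpr115-KO, against 13.2, 8.98 and 11.9 CPM in WT. The groups overlapped, with the highest library in Gpr115-KO and the lowest in WT. Its log2 fold change was 0.10 (SE 0.23, 95% interval −0.39 to 0.60, adjusted p = 0.887 in edgeR). The interval leaves room for a fold of 0.761 to 1.52. The antisense gene Junos, which shares 232 nt of exon with Jun, had 0.570 to 1.10 CPM in Gpr115-KO and 0.568 to 1.83 CPM in WT.

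Whether Junb and Jund differed from Jun was tested, after their values were seen, on the log2 ratio of their levels per kb within each library. The log2 ratio of Junb over Jun was 0.13, 0.18 and 0.86 in Gpr115-KO, against −1.13, −0.22 and −0.33 in WT. The ratio was above 0 in each Gpr115-KO library and below 0 in each WT library, with a difference of 0.95. Where 0 falls depends on the exon lengths used, whereas the difference does not. The log2 ratio of Jund over Jun was 1.27, 1.16 and 1.36 in Gpr115-KO, against −0.61, 0.82 and 0.75 in WT, a difference of 0.94, and of 0.48 without WT replicate 1. Both gave p = 0.1 in a two-sided exact permutation test over libraries, the smallest that 3 against 3 allows, and an adjusted p of 0.2 over the 4 ratios compared. The ratio of Junb over Jund did not separate the genotypes, with means of −0.87 ± 0.33 in Gpr115-KO and −0.88 ± 0.31 in WT (SD, n = 3 each, exact permutation p = 0.9). The remaining ratio, Fosl2 over Fos, differed by −0.28 on the log2 scale, with overlapping libraries (exact permutation p = 0.4, adjusted p = 0.533). Jun made up 22.2%, 22.9% and 18.6% of the Jun family level per kb in Gpr115-KO, against 47.4%, 27.6% and 28.8% in WT. Jund held the largest share in each library except WT replicate 1. The shares and the ratios with Jund use its full exon length and carry the same uncertainty as its level per kb.

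**Figure D2:**
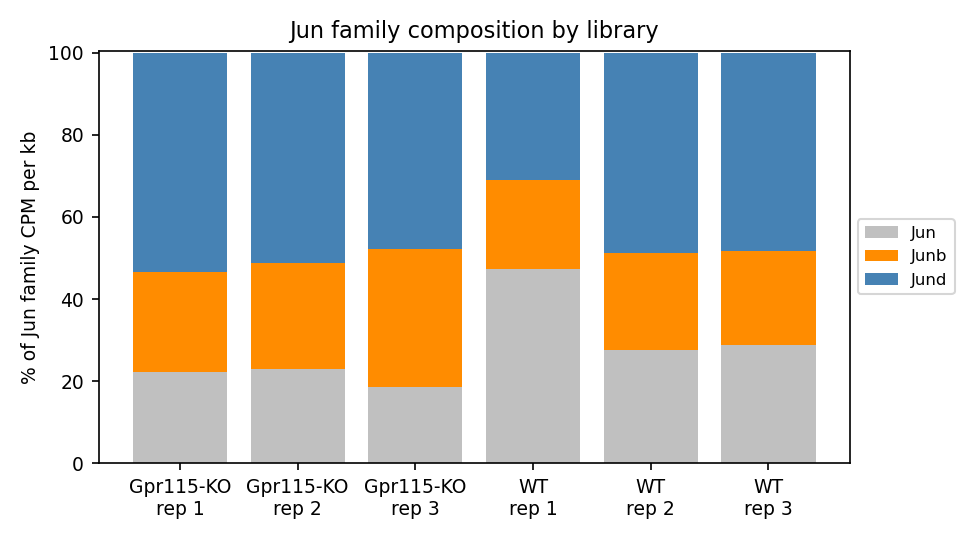
Share of Jun, Junb and Jund in the summed CPM per kb of the Jun family, in percent, for each Gpr115-KO library (left) and each WT library (right). The grey part, Jun, is 18.6% to 22.9% in Gpr115-KO and 27.6% to 47.4% in WT. Jund is taken over its full exon, part of which is shared with Gm11175.

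The promoters shown are those of Junb, whose libraries separated, and of Jun and Fos, whose libraries overlapped. That of Jund is not shown, because its RefSeq start lies far upstream of its GENCODE gene start. The windows are RefSeq sequences on GRCm38.p6 from 250 bases before to 50 bases after the annotated start, and capitals mark matches on either strand. The motifs searched were TGACNTCA (a relaxed cyclic AMP response element), the AP-1 site written as TGANTCA, its relative TGACG (the first bases of the response element), the CCAAT box, TATAAA as the TATA box, and the CArG box that serum response factor binds.
Junb (chr8:84978699-84978998, minus strand): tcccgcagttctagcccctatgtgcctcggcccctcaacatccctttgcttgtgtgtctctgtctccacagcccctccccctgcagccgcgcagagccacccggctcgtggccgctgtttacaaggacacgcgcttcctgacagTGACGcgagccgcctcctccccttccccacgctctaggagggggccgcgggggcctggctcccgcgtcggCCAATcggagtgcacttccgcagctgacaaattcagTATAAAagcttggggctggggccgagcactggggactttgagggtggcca
Jun (chr4:95052173-95052472, minus strand): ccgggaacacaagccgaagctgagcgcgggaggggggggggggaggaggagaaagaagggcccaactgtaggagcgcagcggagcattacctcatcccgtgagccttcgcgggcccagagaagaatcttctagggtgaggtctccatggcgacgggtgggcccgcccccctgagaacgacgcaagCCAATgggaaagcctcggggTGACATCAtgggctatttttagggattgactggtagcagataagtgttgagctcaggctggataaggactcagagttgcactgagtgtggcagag
Fos (chr12:85473640-85473939, plus strand): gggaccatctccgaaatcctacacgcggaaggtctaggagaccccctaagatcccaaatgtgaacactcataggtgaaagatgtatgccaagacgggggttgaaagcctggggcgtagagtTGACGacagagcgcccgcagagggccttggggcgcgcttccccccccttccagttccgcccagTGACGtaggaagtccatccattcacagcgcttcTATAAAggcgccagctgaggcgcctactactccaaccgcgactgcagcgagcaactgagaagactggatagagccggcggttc
The Junb window held 1 match to TGACG, 1 CCAAT box and 1 TATA box, the last of them at the annotated start, which lies 30 nt before the gene start of GENCODE. The Jun window held 1 CCAAT box and 1 match to TGACNTCA, a motif that 8.83% of 32851 promoter windows held. The Fos window held 2 matches to TGACG and 1 TATA box, 33 bases before the start. TGACG occurred in 20.8% of all windows, the CCAAT box in 37.4%, the TATA box in 13.6%, TGANTCA in 7.81% and the CArG box in 1.63%. A TGACG also lies inside any TGACNTCA whose N is G, and none of these 3 windows had such an overlap. None of the 3 windows held a match to TGANTCA or to the CArG box, which says only that these letters are not in these windows. The match to a motif is a description and was not tied to any of the measured levels.

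The Fos family as a whole did not separate the genotypes. Fosl2 (ENSMUSG00000029135, chromosome 5), whose protein is a Fos relative with a role in bone and cartilage growth, was the member with the most counts, at 35.9, 36.7 and 26.2 CPM in Gpr115-KO, against 33.7, 38.9 and 39.6 CPM in WT. Replicate 3 of Gpr115-KO was the lowest library and the other two lay within the WT range. The log2 fold change was −0.18 (SE 0.17, 95% interval −0.57 to 0.20, adjusted p = 0.705 in edgeR), and −0.044 without Gpr115-KO replicate 3 (adjusted p = 0.931). Fos (ENSMUSG00000021250, chromosome 12), the classical partner of Jun, had 2.62, 2.67 and 1.19 CPM in Gpr115-KO, against 2.54, 1.70 and 1.63 CPM in WT. Those are 13 to 25 counts in Gpr115-KO and 15 to 28 in WT, with the lowest library in Gpr115-KO and no separation of the groups. Its log2 fold change of 0.12 (SE 0.44) has a 95% interval from −0.84 to 1.09, a fold of 0.558 to 2.13, so a change of the size fitted for Junb could not be told from none in these libraries. Fosb, which encodes a Fos protein with a short splice form, had 0 counts in the 3 Gpr115-KO libraries and 0, 2 and 0 counts in WT. A count of 0 allows up to 0.274 to 0.342 CPM in the Gpr115-KO libraries (3 counts in a library, counting error only), so no fold is given. Fosl1, which encodes the Fos protein FRA-1, had 5, 1 and 4 counts in Gpr115-KO, against 2, 1 and 0 in WT. Both genes were below the count filter and were not tested. Of the exons of Fosl1, 1163 nt lie over Ccdc85b on the opposite strand, so even these few counts cannot be assigned with certainty. The Fos family summed to 39.1, 39.4 and 27.8 CPM in Gpr115-KO, against 36.5, 40.9 and 41.3 CPM in WT, and the Jun family to 37.8, 41.8 and 37.8 CPM in Gpr115-KO, against 22.1, 22.9 and 29.2 CPM in WT.

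The other members act outside AP-1. Ier2 (ENSMUSG00000053560, chromosome 8, 84661331 to 84662852, minus strand) had 18.0, 17.2 and 17.1 CPM in Gpr115-KO, against 13.3, 14.5 and 13.8 CPM in WT. Both groups were narrow and did not overlap. The log2 fold change was 0.33 (SE 0.17, 95% interval −0.06 to 0.71, adjusted p = 0.471 in edgeR). Over 19 other fits the adjusted p lay between 0.372 and 0.887. The log2 fold change was 0.20 with the GC trend of each library removed and 0.23 with the exon length trend removed. It was 0.11 with both trends subtracted. Each trend was fitted separately, so any part they share was subtracted more than once. Egr1 (ENSMUSG00000038418, chromosome 18), a zinc finger factor of the serum response, had 3.42, 3.42 and 3.38 CPM in Gpr115-KO, against 2.0, 3.41 and 1.63 CPM in WT. WT replicate 2 lay at the Gpr115-KO level and the other WT libraries below it. The log2 fold change was 0.55 (SE 0.37, adjusted p = 0.579 in edgeR), with 0.90 without WT replicate 2 (adjusted p = 0.612) and 0.34 without WT replicate 3 (adjusted p = 0.768). Nr4a1 (ENSMUSG00000023034, chromosome 15), an orphan nuclear receptor, had 2.73, 3.10 and 1.37 CPM in Gpr115-KO, against 4.62, 2.16 and 3.05 CPM in WT. The groups overlapped, and its log2 fold change was −0.47 (SE 0.42, adjusted p = 0.695 in edgeR), with −0.13 without WT replicate 1 (adjusted p = 0.984) and −0.18 without Gpr115-KO replicate 3 (adjusted p = 0.882).

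**Figure D3:**
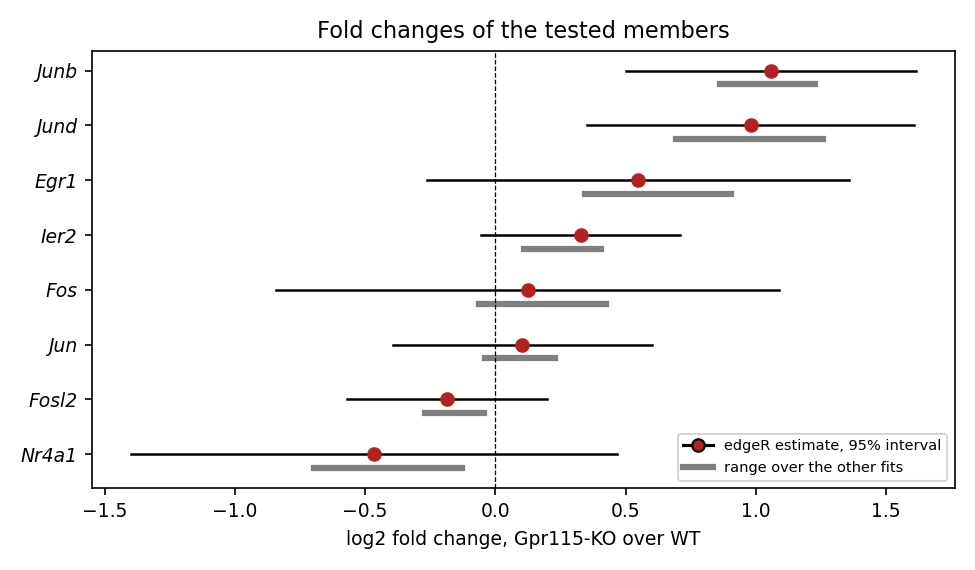
Log2 fold change, Gpr115-KO over WT, of the 8 tested members: red points are edgeR estimates, black lines 95% intervals with no adjustment for the number of genes, and grey bars the range of the estimate over the other fits. The intervals of Junb and Jund lie above 0, those of the other 6 genes include 0, and the grey bars of Fos and Jun cross 0.

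The members with separate libraries had features in common that their names do not give. Junb, Jund and Ier2 all lie on chromosome 8, Ier2 and Junb within 500 kb of each other. Over the 878 tested genes of that chromosome the median log2 fold change was 0.02, 0 were called, and 9.57% had libraries that did not overlap and were higher in Gpr115-KO, against 8.55% of all tested genes. Within 500 kb of its start, Junb had 33 tested genes with a median of 0.02, Jund 33 with a median of 0.21 and Ier2 35 with a median of 0.00, and none was called. The 3 genes are also rich in GC: 67.1% of the Jund transcript is G or C, 62.6% of Junb and 60.9% of Ier2, above 99.8%, 99.0% and 97.8% of the tested genes. Egr1 (57.3%), Nr4a1 (57.0%) and Jun (55.5%), whose libraries overlapped, also lie in the fifth of highest GC content. They lie above 89.6%, 88.1% and 82.1% of the tested genes. The 3 separated members thus had the highest GC content of the tested members, and the part of GC content in their separation was not tested. In the fifth of tested genes with the highest GC content, 55.1% to 76.3%, the median log2 fold change was 0.10 and 10.7% of genes had libraries that did not overlap and were higher in Gpr115-KO. The median deviation of these genes from their mean over the 6 libraries was 0.01, 0.11 and 0.02 in Gpr115-KO and −0.06, −0.04 and 0.01 in WT, on the log2 scale. In the fifth with the shortest exons, up to 1715 nt, which holds Ier2 and Jund, the median log2 fold change was 0.20 and 14.6% had that pattern. With the GC trend of each library removed, Junb stood at 0.91 (adjusted p = 0.220 in edgeR) and Jund at 0.77 (0.296). With the GC and length trends both subtracted, Junb and Jund stood at 0.86 (0.258) and 0.69 (0.351). These trends were fitted separately, so any part they share was subtracted more than once.

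**Figure D4:**
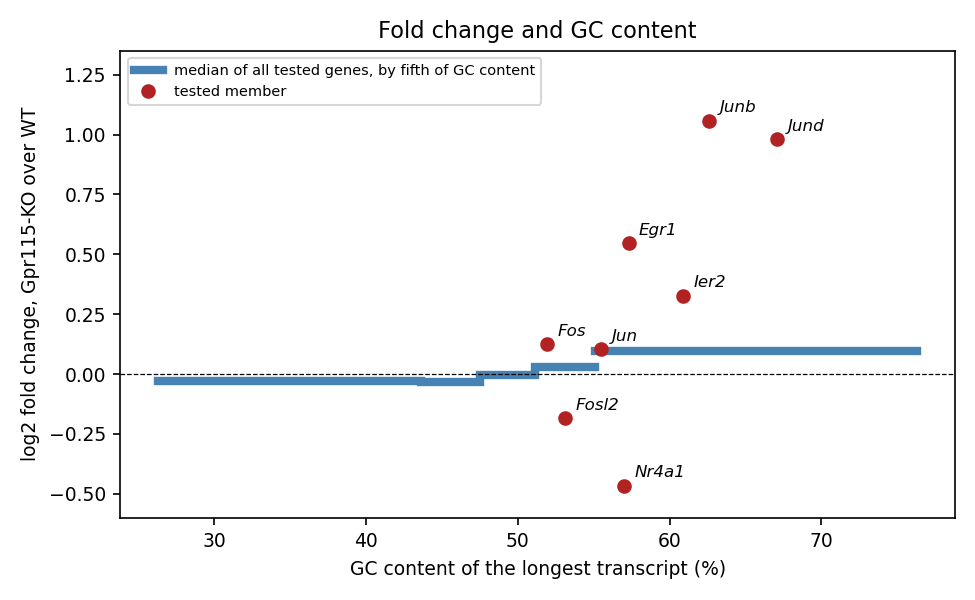
GC content of the longest annotated transcript in percent against log2 fold change, Gpr115-KO over WT, for the 8 tested members (red points); blue bars are the medians of all tested genes in 5 groups by GC content, each drawn over its range. The blue bars lie between −0.03 and 0.10, and Junb and Jund lie at 1.06 and 0.98, to the right.

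Other immediate early genes were not called either. Of 29 listed, 22 were tested and 0 were called, with 17 above 0 and 5 below and a median log2 fold change of 0.16. At an unadjusted p under 0.05 there were 3, all higher in Gpr115-KO, where 4.85% of all genes were. Rgs2, which encodes an inhibitor of G protein signalling, had 11.5, 14.2 and 11.1 CPM in Gpr115-KO, against 6.98, 7.50 and 8.94 CPM in WT, without overlap (log2 fold change 0.65, SE 0.22, adjusted p = 0.290 in edgeR). Sik1, a salt-inducible kinase encoded on chromosome 17, the chromosome of Adgrf4, had 9.91, 10.05 and 4.66 CPM in Gpr115-KO, against 5.53, 4.77 and 4.68 CPM in WT, and overlapped (log2 fold change 0.71, adjusted p = 0.398 in edgeR). Rhob, which encodes a small GTPase, had 17.2, 39.0 and 17.9 CPM in Gpr115-KO, against 14.9, 16.1 and 15.7 CPM in WT, and Gpr115-KO replicate 2 stood apart (log2 fold change 0.67, adjusted p = 0.403 in edgeR). Without that replicate the log2 fold change of Rhob was 0.18 (adjusted p = 0.825). Gpr115-KO replicate 2 was also the library high in skeletal muscle markers, whose part in this value was not tested. Nfkbiz, which encodes a nuclear regulator of NF-kappaB targets, was at 2.39, 2.14 and 1.55 CPM in Gpr115-KO, against 3.17, 4.09 and 2.85 CPM in WT (log2 fold change −0.73, adjusted p = 0.430 in edgeR). The 7 that were not tested were Egr2, Nr4a2, Nr4a3, Ier5l, Klf2, Maff and Arc, all of them too low for the count filter.

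Genes whose proteins pair with AP-1 members or share their sites had no call among 12 tested of 13, with a median of 0.01. Mafk, a small Maf protein that pairs with other leucine zipper factors, had 8.55, 7.27 and 6.77 CPM in Gpr115-KO, against 4.44, 3.64 and 2.85 CPM in WT. The groups did not overlap, and the log2 fold change of 1.04 (SE 0.27, adjusted p = 0.219 in edgeR) was close to that of Junb. Batf, an AP-1 factor of lymphoid cells, had a log2 fold change of 0.70 (SE 0.38), Mafg −0.33 (SE 0.19) and Atf7 −0.48 (SE 0.17), with edgeR adjusted p of 0.483, 0.511 and 0.309. In this list 4 genes had libraries that did not overlap and were lower in Gpr115-KO, where 8.99% of all genes had this pattern, and 1 was higher.

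Upstream of the members, 22 of 22 kinases and promoter-bound factors were tested and none was called, with 12 above 0, 10 below and a median of 0.03. Mkl2, a coactivator of serum response factor, had 115, 128 and 139 CPM in Gpr115-KO, against 179, 184 and 173 CPM in WT, without overlap (log2 fold change −0.49, SE 0.15, adjusted p = 0.266 in edgeR). Srf, encoded on chromosome 17, had 7.75, 7.37 and 3.84 CPM in Gpr115-KO, against 14.6, 7.96 and 8.23 CPM in WT, also without overlap (log2 fold change −0.71, adjusted p = 0.423 in edgeR). Without WT replicate 1 it was −0.36 (adjusted p = 0.912), and without Gpr115-KO replicate 3 it was −0.45 (adjusted p = 0.551). Map2k1, the kinase above ERK, had 24.3, 31.3 and 31.8 CPM in Gpr115-KO, against 19.95, 22.5 and 21.7 CPM in WT (log2 fold change 0.45, adjusted p = 0.328 in edgeR). Crem, a factor of the cyclic AMP response, had a log2 fold change of −0.47 (SE 0.26).

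The remaining lists held no gene at an unadjusted p under 0.05. Of 11 tested ERK feedback genes 4 were above 0 and 7 below, with a median of −0.17. Among them Dusp2, a phosphatase of MAP kinases, had a log2 fold change of 0.91 (SE 0.46) at 1.60, 2.35 and 1.37 CPM in Gpr115-KO, against 1.09, 0.682 and 1.02 CPM in WT. Spry4, an inhibitor of receptor tyrosine kinase signalling, had a log2 fold change of −0.33 (SE 0.20), and the genes of the RNA-binding proteins Zfp36l1 and Zfp36l2 had −0.20 (SE 0.16) and −0.46 (SE 0.34). Of 11 tested genes described as AP-1 targets 5 were above 0, with a median of −0.05. The matrix protease Mmp9 had a log2 fold change of 0.61 (SE 0.32), the urokinase receptor Plaur −0.24 (SE 0.21), the hyaluronan receptor Cd44 −0.24 (SE 0.17) and Spp1, which encodes osteopontin, 0.83 (SE 0.64). Spp1 had 165, 92.5 and 26.9 CPM in Gpr115-KO, against 64.1, 40.1 and 55.6 CPM in WT, and so spanned the WT range. Without Gpr115-KO replicate 1 the log2 fold change was 0.16 for Spp1, 0.31 for Mmp9 and −0.14 for Zfp36l2. Without Gpr115-KO replicate 3 it was 1.27 for Spp1, 0.88 for Mmp9 and −0.89 for Zfp36l2. Heat shock genes, which also respond to handling of tissue, were at a median of −0.15, with 5 of 11 above 0. Their 4 genes of smallest p were the chaperone genes Dnaja1 (−0.29), Hsph1 (−0.27), Hspd1 (−0.16) and Hspe1 (0.39), the last at 0.12 without Gpr115-KO replicate 2. The edgeR adjusted p of these 12 genes lay between 0.452 and 0.680.

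**Figure D5:**
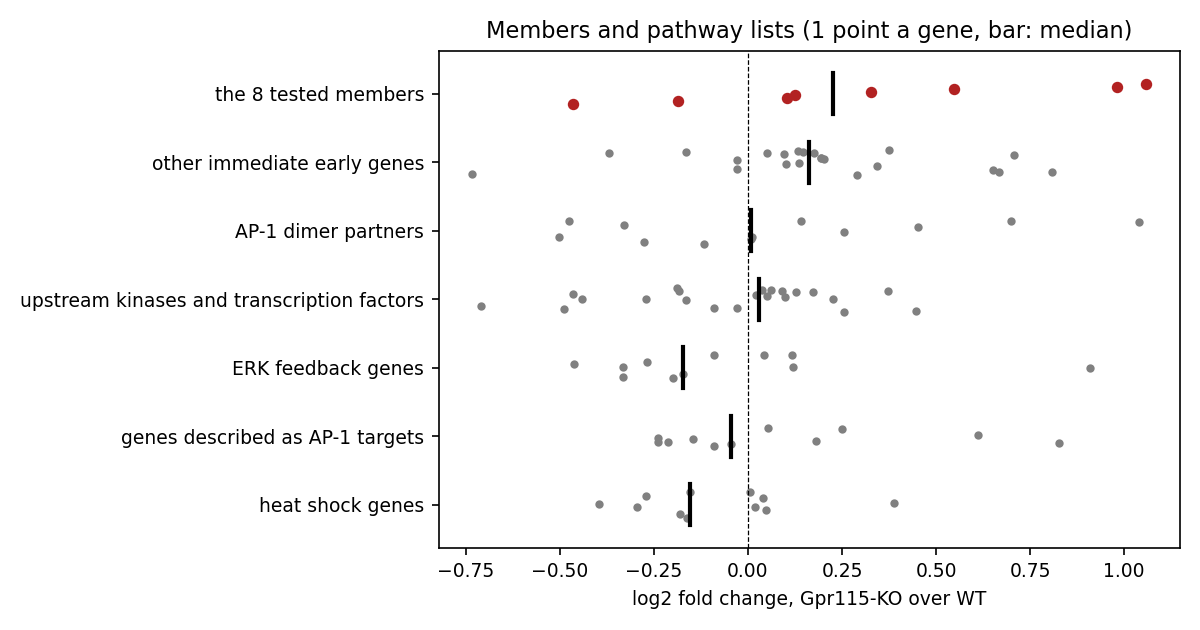
Log2 fold change, Gpr115-KO over WT, of the 8 tested members (red) and of the tested genes of each list (grey), 1 point a gene, with a bar at the median. The medians lie between −0.17 and 0.23, and none of the points was called.

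Among 14507 other genes with a mean log2 CPM of at least 1, the pattern over the 6 libraries was compared with that of single members by the root mean square difference of centred log2 values. Fos was closest to Ubr4 (0.0386), which encodes a ubiquitin ligase, with 20.2, 21.4 and 11.1 CPM in Gpr115-KO, against 20.1, 14.3 and 14.8 CPM in WT. Dchs1, Gm2245, Kif1c, Gm11940 and Ppp1r13l followed, at 0.0885 to 0.104. Egr1 was closest to Peak1 (0.0836), Cacna2d3, Pex19, Nle1, Zfp251 and Gm20417 (0.132). Fos had 13 to 28 counts a library and Egr1 16 to 37, so these patterns include counting error, whose part in the matches was not tested. Junb, compared in the same way after its values were seen, was closest to Cmas (0.103), Pomgnt1, B3gnt9, Ctbp1, Fam83h and Eif2ak3 (0.132). Cmas, which encodes an enzyme of sialic acid activation, had 23.0, 24.3 and 27.2 CPM in Gpr115-KO, against 9.70, 12.6 and 17.5 CPM in WT. Jund, also compared after its values were seen, was closest to Rpl36a-ps2 (0.0977), Stfa3, Gm7618, Gm17745, Gm13624 and Gm15464 (0.170), of which 4 are annotated as processed pseudogenes, whose reads can be shared with near-identical copies. No immediate early gene of the lists was among these neighbours, and the members themselves were not candidates. With at most 22 tested genes of that list among 14507 candidates, the absence cannot show whether immediate early genes vary together.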

How the data were processed

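Per the labels' protocols, TRIzol RNA went into Nextera XT libraries and was read as pairs (this kit keeps no strand). GRCm38 (mm10), STAR 2.5.2a, edgeR, limma and DESeq2 are named by the submitters' processing notes (counting tool and annotation: not given in the sources used here). Raw counts, as deposited by the authors, cover 48709 genes. A further 15 transgene rows, with at most 8 counts in a library, were left out. The deposited normalized signal is counts divided by a factor per library (CPM scaled by TMM): 100% of its values came back as whole reads (tolerance 0.01) and matched the counts. edgeR on those reads called 6 higher and 18 lower genes, as on the counts.

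The counts went into edgeR 4.0.16 (R 4.3.3; filterByExpr with a minimum count of 10 and minimum total of 15, TMM, robust quasi-likelihood F test, genotype only, Benjamini-Hochberg over 16011 genes, called at an adjusted p under 0.05). CPM carry no pseudocount. Standard errors are the size of the log2 fold change over the square root of F. Alternatives used DESeq2 1.42.0, limma 3.58.1, other scalings and filters, the replicate number as a block, length trends removed and each library left out. GC trends, recovered reads, ratios between members and the neighbours of Junb and Jund were added after the values were seen. Symbols came from the deposited table and GENCODE vM21, as did coordinates and exons. Promoter windows were found for 7 members outside chromosome 18. Libraries of a group differed by a chi-square of 14.8 to 60.7 per degree of freedom, more than counting noise, so none was treated as a repeat deposit of another; this does not separate animals from repeat preparations of an RNA.

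The members and lists were chosen with earlier results of these data known. Named genes were all members, up to 4 genes of smallest p in each list (all called ones, had there been 4 or more), Adgrf4, and the 6 genes closest in pattern to Fos and to Egr1 (log2 of CPM plus 0.5). Prdx2, Gm11175, Junos and Ccdc85b are named because they overlap members.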

Additional observations from a re-analysis of the deposited data

How the results depend on the processing

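Leaving out each library in turn gave a log2 fold change of −0.062 to 0.43 for Fos and −0.040 to 0.23 for Jun, which fell below 0 without Gpr115-KO replicate 1 or 2 for Fos and without Gpr115-KO replicate 2 or WT replicate 2 for Jun. It left 0 members called in each case. Of 149 values of the 8 tested members under the alternatives that have an adjusted p, 142 kept their direction and side of the threshold, 3 passed it (Junb with DESeq2, and Junb and Jund in edgeR with no count filter) and 4 changed sign. The DESeq2 Wald test gave no adjusted p for Fos, Egr1 and Nr4a1, whose direction was kept. Of the values of the 24 named list genes, the 453 with an adjusted p kept both, and DESeq2 gave none for Dusp2 and Nfkbiz. Leaving out 1 library moved 14 of these 24 by over 1.5 times: Batf, Cd44, Crem, Hspe1, Hsph1, Mafg, Mmp9, Plaur, Rhob, Spp1, Spry4, Srf, Zfp36l1 and Zfp36l2. Members called numbered 1 with the DESeq2 Wald test and 2 with no count filter. Over all genes there were 6 higher and 18 lower calls, against 59 and 180 with the DESeq2 Wald test, 135 and 365 with no count filter, 16 and 35 at an adjusted p under 0.1, and 11 lower with library totals alone. Leaving out a library gave 5 to 10 higher and 7 to 39 lower calls. The causes were not tested.

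Whether the replicate numbers pair the libraries is not known. The correlation of deviations from the group means was 0.27, 0.03 and −0.07 for same-numbered pairs. Replicates 2 and 3 of Gpr115-KO correlated more with another number, while the 0.27 of replicates 1 was the highest of all pairs. With 3 libraries a group, these correlations cannot decide the question. With the replicate number as a block there were 18 higher and 54 lower calls and 0 members, with an adjusted p of 0.117 for Junb and 0.152 for Jund. Fos, Egr1 and Nr4a1 had 13 to 51 counts a library, and Fosb and Fosl1 were below the count filter. How much of their spread is counting error was not tested.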
